A study of Danio rerio with 8 samples.

Results

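Hox and caudal-type (cdx) homeobox genes were described in RNA from whole zebrafish larvae, 2 days old. They were taken as every gene whose symbol began with hoxa, hoxb, hoxc or hoxd, or was cdx1a, cdx1b or cdx4, with a level of 0.5 TPM or more as the mean of the 8 libraries (TPM is a transcript level corrected for length and for the library's total). This gave 49 genes, 48 Hox genes and cdx4, of 51 genes with such a symbol and 32520 genes in all. The levels of 4 libraries from nphp8 mutants were compared with those of 4 control libraries. The mutants were homozygous for the allele sa24730 (nphp8(sa24730) m/m) and maternal-zygotic, which means that their mothers carried it in both copies too. The controls are given a wild-type genotype in the sample labels and are called siblings in the design, and neither group had any treatment. These descriptions conflict, because any offspring of such a mother would carry the allele too. Whether mutants and controls shared mothers is not stated, so differences of mother or clutch cannot be told apart from the mutation. How many larvae or clutches went into a library is not stated, so p-values measure only the spread between these libraries, which may be technical.

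The gene nphp8, listed as RPGRIP1L, encodes a protein of the ciliary transition zone, the gate at the base of the cilium. Its transcript stood at 0.75, 0.72, 0.77 and 0.78 TPM in mutants, against 2.75, 2.6, 2.26 and 2.17 TPM in controls (exact permutation test, two-sided, p = 0.0286, the smallest that 70 assignments allow). The groups did not overlap. Libraries listed 23637 to 23829 genes above 0 in mutants and 23690 to 23964 in controls, and TPM carries no depth, so the number of reads behind a value is unknown. Of 29 gene IDs matched to markers of larval tissues, 28 reached 0.5 TPM, among them markers of muscle, skin, cartilage, blood, lens, hatching gland, gut, kidney, heart, vessels, pigment cells, neurons and glia.

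Hox genes encode transcription factors with a homeodomain and lie in clusters whose gene order follows the order of their expression along the body. Paralogue groups are numbered from the end of the cluster used in the head, so low numbers act in the hindbrain and pharyngeal arches, middle numbers in the trunk, and high numbers in the tail and in the outer parts of fins or limbs. Teleost fish kept many duplicated copies, marked a and b. The cdx factors act upstream of Hox genes in the posterior body, and cdx4 is also required for blood formation in zebrafish, where its mutant is called kugelig.

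Many of the anterior and central Hox genes fell in the mutants, by modest amounts, while most posterior Hox genes did not pass the test. Of the 49 genes, 17 fell and 0 rose at an adjusted p under 0.05 (limma on log2(TPM + 1), adjusted over all 18635 genes tested). That is 34.7% of them lower, where 11.9% of all genes tested were called lower, 8.38% higher and 20.3% in either direction. The 49 genes had a median level of 12.7 TPM, against 6.32 TPM over all genes tested, and more abundant genes were called more often. With the test limited to means of at least 5 TPM, 15 of 38 members were lower, where 18.1% of all 10367 such genes were. For 15 of the 49 every mutant library lay below every control, and for 0 above; over all genes tested these shares were 13.8% and 10.7%, or 24.5% in either direction. At an unadjusted p under 0.05 in limma, 21 of the 49 were lower and 0 were higher. Among all 18635 genes tested, 3582 were lower and 2668 higher at that threshold. The median log2 change was -0.12 over the 49 genes and -0.01 over all genes tested. In whole larvae, fewer cells of a type and less RNA per cell cannot be told apart.

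The calls lay unevenly along the paralogue order. In groups 1 to 4, which pattern the hindbrain and arches, 9 of 13 genes (69.2%) fell, and the other 4 also had a lower mean in mutants. In groups 5 to 8, of the trunk, 5 of 12 (41.7%) fell and 11 of 12 had a lower mean. In groups 9 to 13, of the posterior trunk, tail and fins, 2 of 23 (8.7%) fell, 17 had a lower mean and 6 a higher one. Over all 18635 genes tested, 11.9% were called lower, near the share of groups 9 to 13, and 9950 had a negative log2 change. The median log2 changes of these blocks were -0.22, -0.18 and -0.03, and the median standard errors of their genes were 0.0552, 0.0666 and 0.0718. The difference between the blocks was described and not tested.

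**Figure D1:**
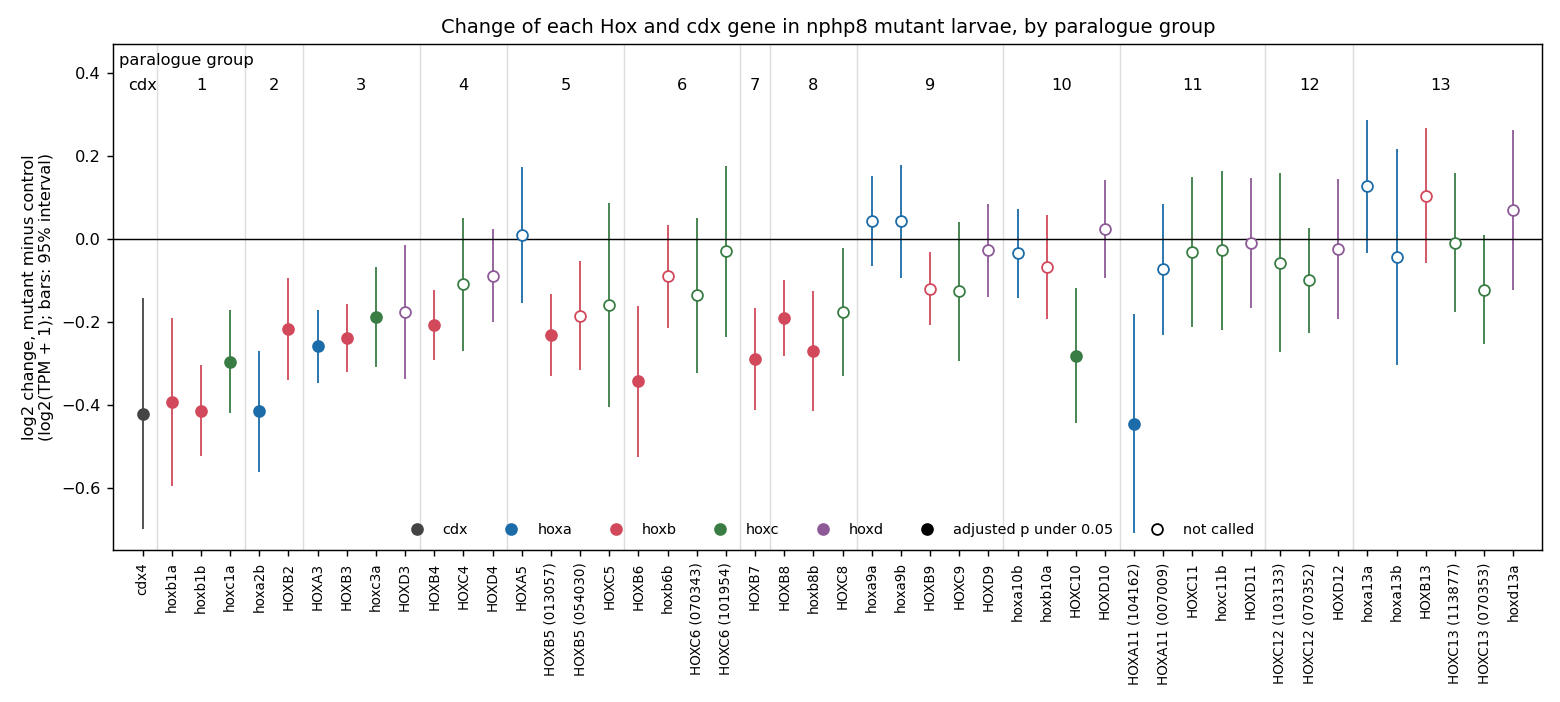
Log2 change (mutant minus control, log2(TPM + 1) scale) of 48 of the 49 genes, in order of paralogue group and coloured by cluster, with 95% intervals from limma; filled points passed an adjusted p under 0.05 and numbers in brackets are the last digits of the Ensembl identifier where 2 genes share a symbol. Filled points are all below 0, and 14 of the 17 belong to paralogue groups 1 to 8.

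Across the 48 Hox genes the log2 change ran with the paralogue number (Spearman's rho = 0.629, Pearson's r = 0.607). Genes of low number tended to have the more negative changes, but the order was not smooth. Medians were -0.11 in groups 4 and 6, -0.29 in group 7 (1 gene) and -0.19 in group 8. In groups 9 to 12 they lay between -0.06 and -0.03. The most negative change of a Hox gene, -0.45, was that of HOXA11 (ENSDARG00000104162) of group 11. Genes are not independent replicates, share the same 8 libraries and in part share reads, and the correlation is given as a description. Leaving out any single library kept rho between 0.586 and 0.675. Within the hoxa, hoxb, hoxc and hoxd genes rho was 0.33 (11 genes), 0.645 (15 genes), 0.608 (15 genes) and 0.857 (7 genes).

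Each mutant library showed the same split. The median log2 difference of groups 1 to 4 from the controls was -0.28, -0.19, -0.24 and -0.23 in mutant replicates 1 to 4, against 0.05, -0.02, 0.02 and 0.01 for control replicates 1 to 4, each set against the other controls. For groups 5 to 8 it was -0.20, -0.20, -0.16 and -0.21 in mutants, against 0.03, -0.001, -0.02 and -0.003 in controls. Mutants lay wholly below controls in both blocks. For groups 9 to 13 it was -0.07, 0.003, 0.02 and -0.07 in mutants, against -0.003, -0.07, 0.04 and 0.07 in controls, and the groups overlapped.

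**Figure D2:**
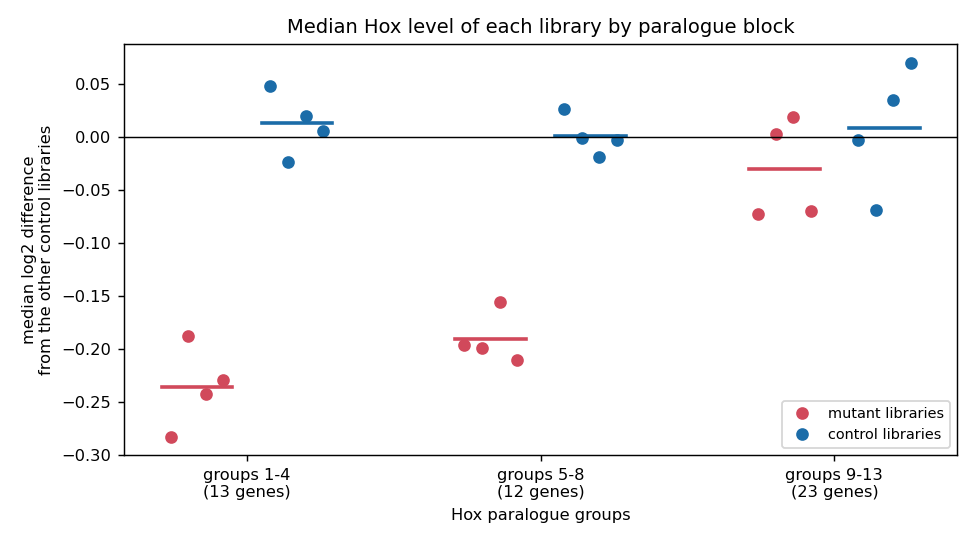
Median log2 difference of each library from the control libraries over the genes of 3 blocks of Hox paralogue groups; for a control library the other 3 controls are the reference, points are libraries and lines are means. Mutant libraries sit between -0.28 and -0.16 in groups 1 to 8, apart from the controls, and overlap them in groups 9 to 13.

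Summed levels followed the same pattern, though HOXA3, hoxc3a and HOXB3 made up most of the sum of groups 1 to 4. Their means over the 8 libraries were 65.12, 58.19 and 41.15 TPM, and these levels are uncertain for a reason given with group 3 below. The 13 genes of groups 1 to 4 summed to 256.5 ± 2.83 TPM in mutants and 304.3 ± 2.71 TPM in controls (SD, n = 4 each), a ratio of 0.843. The 12 genes of groups 5 to 8 summed to 169.5 ± 1.25 TPM in mutants and 194.6 ± 3.62 TPM in controls, a ratio of 0.871. The 23 genes of groups 9 to 13 summed to 224.7, 236.1, 236.1 and 222.6 TPM in mutants, against 241.8, 239.3, 239.8 and 243.0 TPM in controls, a ratio of 0.954. In that last block the sums did not overlap either. HOXB9 and HOXC9, its most abundant genes, had ratios of 0.918 and 0.91. The sum of groups 1 to 4 over that of groups 9 to 13 was 1.13, 1.1, 1.07 and 1.16 in mutants, against 1.26, 1.28, 1.25 and 1.26 in controls.

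**Figure D3:**
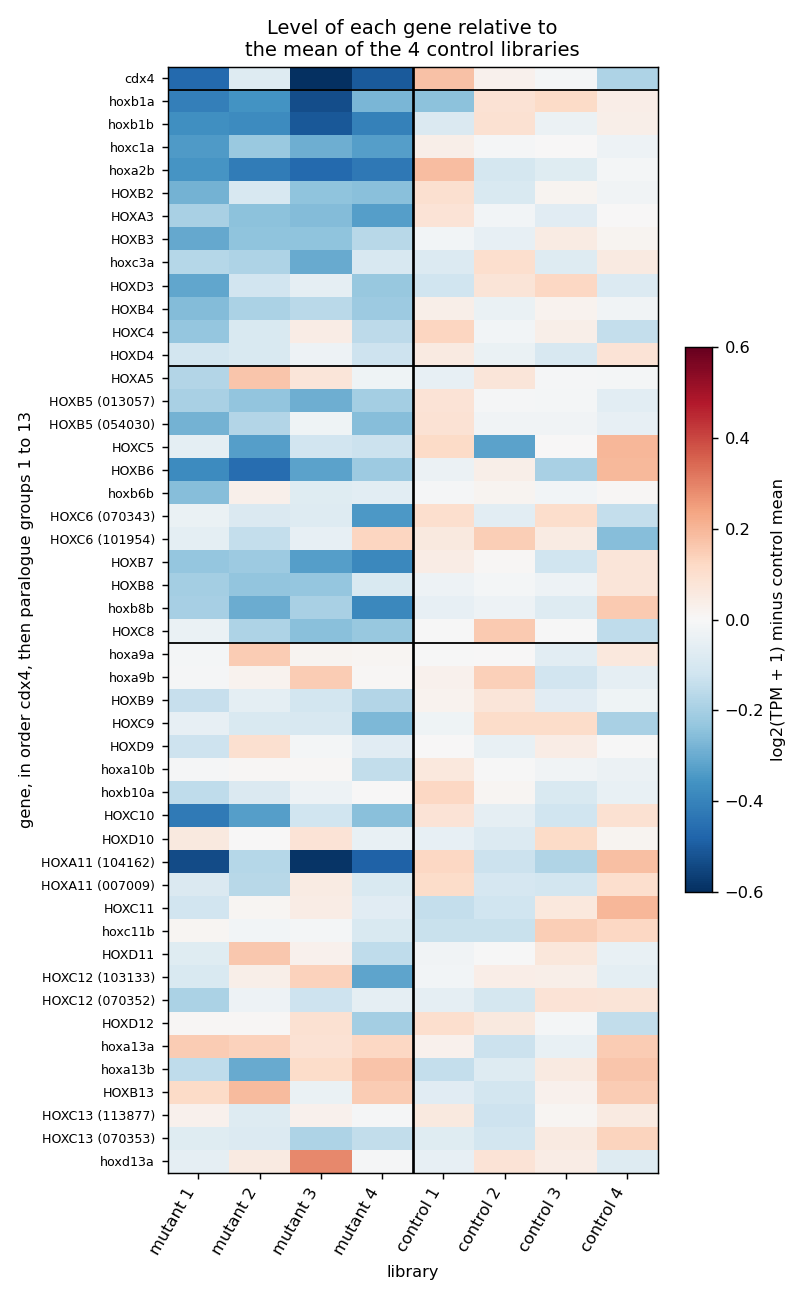
Level of 48 of the 49 genes in each library as log2(TPM + 1) minus the mean of the 4 controls, with cdx4 on top and paralogue groups 1 to 13 below it; colour runs from -0.6 (blue) to 0.6 (red), black lines separate the groups of libraries and the blocks. Blue cells fill the mutant columns for cdx4 and most genes of groups 1 to 8. In groups 9 to 13 differences are smaller, with 17, 11, 10 and 17 of 23 genes below the control mean in mutant replicates 1 to 4.

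The upstream factor was low in level and lower in mutants. The caudal gene cdx4 (ENSDARG00000036292) stood at 1.55, 2.34, 1.27 and 1.49 TPM in mutants, against 2.98, 2.59, 2.5 and 2.1 TPM in controls. Mutant replicate 2 lay above control replicate 4, so the groups overlapped, and the mean ratio was 0.654 (log2 change -0.42, SE 0.125, limma adjusted p = 0.0396). The call was lost without mutant replicate 1, 3 or 4 or control replicate 1, 2 or 3 (adjusted p = 0.0735 to 0.0977) and when genes of any level were tested (adjusted p = 0.0678). The other cdx genes lay outside the 0.5 TPM rule, cdx1b at a mean of 0.189 TPM and cdx1a at 0.0238 TPM, and the lowest gene inside it was HOXC13 (ENSDARG00000113877) at 1.09 TPM.

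In groups 1 to 8 the 3 largest decreases on the log2 scale were those of hoxa2b, hoxb1b and hoxb1a, all hindbrain genes. The gene hoxb1b (ENSDARG00000054033), which acts early in hindbrain segmentation, was the most abundant of its group, at 17.79, 17.7, 16.08 and 17.29 TPM in mutants, against 21.82, 24.81, 22.66 and 23.86 TPM in controls. No mutant library reached the lowest control, and the ratio was 0.739 (log2 change -0.41, SE 0.0491, limma adjusted p = 0.000335). Its copy hoxb1a (ENSDARG00000008174), which gives the fourth hindbrain segment and its facial motor neurons their identity, stood at 3.99, 4.17, 3.58 and 4.47 TPM in mutants, against 4.59, 6.04, 6.17 and 5.81 TPM in controls. Control replicate 1 was the low one and lay just above the mutants (ratio 0.717, limma adjusted p = 0.0137). The third gene, hoxc1a (ENSDARG00000070337), stood at 3.18, 3.54, 3.32 and 3.21 TPM in mutants, against 4.43, 4.26, 4.31 and 4.18 TPM in controls, without overlap (ratio 0.771, adjusted p = 0.00484).

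Both genes of group 2 fell. The gene hoxa2b (ENSDARG00000023031), the selector of the second pharyngeal arch, stood at 9.53, 9.08, 8.75 and 9.01 TPM in mutants, against 14.32, 11.51, 11.82 and 12.37 TPM in controls. The mutants lay close together and below every control (ratio 0.727, log2 change -0.42, SE 0.065, limma adjusted p = 0.00178). HOXB2 (hoxb2a, ENSDARG00000000175), also of the hindbrain, stood at 12.34, 14.18, 12.75 and 12.66 TPM in mutants, against 16.36, 14.24, 15.4 and 14.99 TPM in controls. Mutant replicate 2 lay only just under control replicate 2 (ratio 0.851, adjusted p = 0.0211). This call was lost without mutant replicate 1, 3 or 4 or control replicate 1 or 3 (adjusted p = 0.0504 to 0.0595).

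Group 3 genes pattern the posterior hindbrain and the arches behind it. HOXA3, hoxc3a and HOXB3 had the highest mean levels of the 49 genes. HOXA3 (hoxa3a, ENSDARG00000103862) stood at 61.82, 59.77, 59.03 and 56.2 TPM in mutants, against 75.19, 70.14, 67.6 and 71.21 TPM in controls. There was no overlap (ratio 0.833, log2 change -0.26, SE 0.0394, limma adjusted p = 0.00155). HOXB3 (hoxb3a, ENSDARG00000029263) stood at 35.82, 37.64, 37.55 and 39.64 TPM in mutants, against 44.11, 43.09, 46.22 and 45.11 TPM in controls, again without overlap (ratio 0.844, adjusted p = 0.00167). The gene hoxc3a (ENSDARG00000070339) stood at 54.94, 54.41, 50.04 and 57.85 TPM in mutants, against 58.57, 66.61, 58.7 and 64.42 TPM in controls. The gap between the groups was narrow (ratio 0.875, adjusted p = 0.0347), and the call was lost without mutant replicate 1, 2 or 3 or control replicate 2 or 4 (adjusted p = 0.0654 to 0.0885), as well as after rescaling without mitochondrial and the most abundant genes (0.0629). HOXD3 averaged 14.3 ± 1.22 TPM in mutants and 16.3 ± 1.41 TPM in controls and did not pass (adjusted p = 0.115). In the RefSeq gene table of another assembly the span of hoxa3a holds hoxa4a and hoxa5a, that of hoxb3a holds hoxb4a, hoxb5a and hoxb6a, that of hoxc3a holds 5 other hoxc genes, and that of hoxd3a holds hoxd4a. The span of hoxb1b likewise holds hoxb5b and hoxb6b. How RSEM divided reads among such genes, and whether strand was used, is stated neither in the labels nor in the table, so the levels of group 3 genes, of hoxb1b and of the genes within their spans are uncertain.

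In group 4, which works at the border of hindbrain and spinal cord, HOXB4 (hoxb4a, ENSDARG00000013533) fell. It stood at 15.08, 15.93, 16.25 and 15.57 TPM in mutants, against 18.78, 17.79, 18.57 and 18.03 TPM in controls. The spread within each group was small and the groups lay apart (ratio 0.859, log2 change -0.21, SE 0.0375, limma adjusted p = 0.00403). HOXC4 and HOXD4 did not pass, with ratios of 0.922 and 0.935.

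Among the trunk genes of groups 5 to 8, all 5 that fell belonged to the hoxb genes. Most genes of these groups are hoxb genes, the others being HOXA5, HOXC5, the HOXC6 genes and HOXC8. HOXB5 (ENSDARG00000013057) stood at 12.27, 11.88, 11.36 and 12.15 TPM in mutants, against 15.06, 14.09, 14.02 and 13.52 TPM in controls, without overlap (ratio 0.841, limma adjusted p = 0.00565). The more abundant gene with the same symbol, HOXB5 (ENSDARG00000054030), stood at 20.48, 22.15, 24.73 and 20.94 TPM in mutants, against 26.82, 24.81, 24.8 and 24.32 TPM in controls. Mutant replicate 3 was as high as the controls, and the gene just missed the threshold (ratio 0.876, adjusted p = 0.0508). Without that library it passed (adjusted p = 0.00926), as it did where the test was limited to means from 1 TPM up (adjusted p = 0.0463) or from 5 TPM up (0.0346).

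HOXB6 (hoxb6a, ENSDARG00000010630) stood at 11.56, 10.88, 12.04 and 13.04 TPM in mutants, against 14.92, 15.72, 13.26 and 17.64 TPM in controls. The groups lay apart (ratio 0.772, limma adjusted p = 0.0156). Its copy hoxb6b (ENSDARG00000026513), the most abundant gene of group 6, stood at 17.9, 22.07, 20.47 and 20.58 TPM in mutants, against 21.43, 21.8, 21.35 and 21.7 TPM in controls. For hoxb6b the groups overlapped and the test was not passed (ratio 0.939, adjusted p = 0.29). HOXB7 (hoxb7a, ENSDARG00000056030), the single member of group 7, stood at 16.25, 16.42, 15.1 and 14.49 TPM in mutants, against 19.85, 19.31, 17.61 and 20.27 TPM in controls. It was lower in every mutant library (ratio 0.808, adjusted p = 0.00532).

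In group 8, HOXB8 (hoxb8a, ENSDARG00000056027) was the most abundant, at 32.62, 31.92, 31.96 and 35.35 TPM in mutants, against 36.87, 37.41, 36.99 and 39.76 TPM in controls. The highest mutant library lay below the lowest control (ratio 0.873, limma adjusted p = 0.00998). Its copy hoxb8b (ENSDARG00000054025) stood at 11.54, 10.71, 11.58 and 10.02 TPM in mutants, against 12.93, 13.1, 12.67 and 15.04 TPM in controls, without overlap (ratio 0.816, adjusted p = 0.0159). HOXC8 (hoxc8a, ENSDARG00000070346) stood at 17.15, 15.45, 14.67 and 14.94 TPM in mutants, against 17.63, 19.81, 17.64 and 15.83 TPM in controls. It did not pass (ratio 0.877, adjusted p = 0.102) but did so without control replicate 4 (adjusted p = 0.0466), the lowest control. HOXA5, HOXC5 and the HOXC6 genes did not pass either, with ratios from 0.874 to 1.01.

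**Figure D4:**
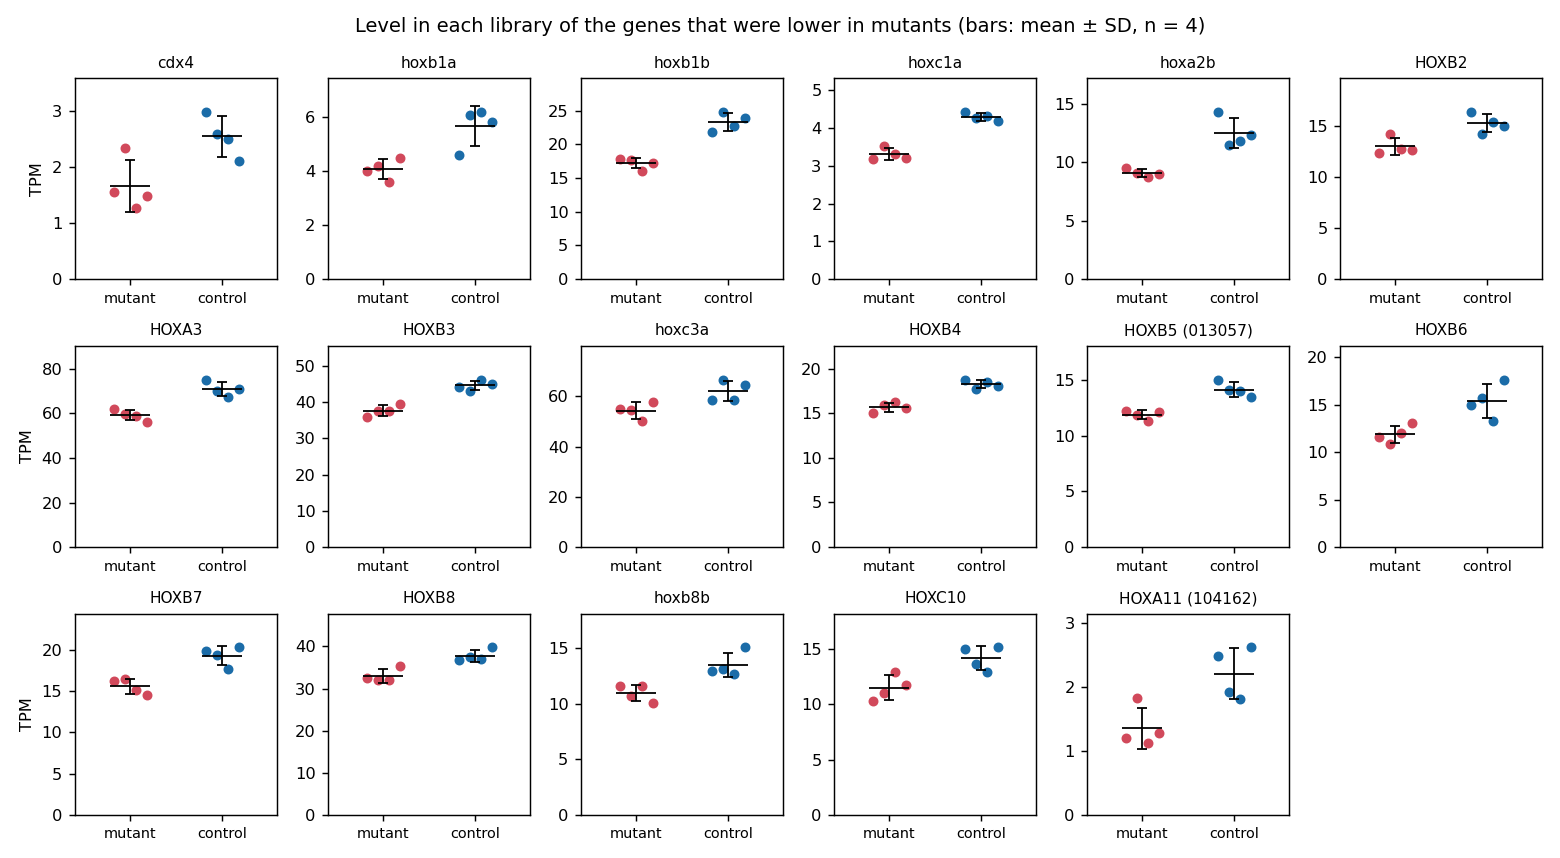
TPM in each library of the 17 genes that were lower in mutants, each panel on a linear axis from 0, with the mutant libraries left of the controls and bars for mean ± SD (n = 4). The groups do not overlap for 15 of the 17, the exceptions being cdx4 and HOXA11 (ENSDARG00000104162). The 17 were picked by the test on these same libraries, so the lack of overlap is no separate evidence.

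The hoxb genes carried most of the calls. In groups 1 to 8, 10 of 12 hoxb genes (83.3%) fell, against 4 of 13 genes (30.8%) of the hoxa, hoxc and hoxd clusters. Over all genes tested 11.9% were called lower. The median log2 changes were -0.24 for the hoxb genes and -0.16 for the 13 others. Of these 13, 12 had a lower mean in mutants. The difference between clusters was not tested. The hoxb genes made up 12 of the 25 genes of groups 1 to 8 but 3 of the 23 of groups 9 to 13. Cluster and block are therefore partly confounded. In the RefSeq gene table HOXB4 and HOXB6 lie within the span of HOXB3. Other clusters show such nesting too, with HOXA5 within HOXA3, HOXC4, HOXC5 and HOXC8 within hoxc3a, and HOXD4 within HOXD3. These nested genes of other clusters were not called. How far calls of any cluster rest on shared reads was not tested. The hoxb genes of groups 1 to 8 had a median level of 17.2 TPM and a median standard error of 0.0552, against 10.8 TPM and 0.072 for the others.

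Of the 23 posterior genes 2 (8.7%) were called lower, a share near the 11.9% of all genes tested. HOXC10 (hoxc10a, ENSDARG00000070348), which in the mouse takes part in patterning lumbar motor neurons, stood at 10.3, 11.06, 12.96 and 11.76 TPM in mutants, against 15.04, 13.64, 12.97 and 15.16 TPM in controls. Mutant replicate 3 and control replicate 3 nearly met (ratio 0.811, limma adjusted p = 0.0228). HOXA11 (ENSDARG00000104162), of a group that in the mouse patterns the forearm and lower leg, stood at 1.2, 1.83, 1.12 and 1.28 TPM in mutants, against 2.48, 1.92, 1.82 and 2.62 TPM in controls. The groups overlapped by mutant replicate 2 and control replicate 3 (ratio 0.614, log2 change -0.45, SE 0.118, adjusted p = 0.025). Both calls were lost without mutant replicate 1 and without control replicate 1 or 4. HOXC10 was also lost without mutant replicate 2 (adjusted p = 0.0581 to 0.0636 over its losses) and HOXA11 without mutant replicate 3 or 4 (adjusted p = 0.0594 to 0.0678), and 3 posterior genes were called without control replicate 3.

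The most abundant gene of each posterior group was not called. HOXB9 (hoxb9a, ENSDARG00000056023) stood at 32.59, 34.52, 33.22 and 31.7 TPM in mutants, against 36.52, 37.81, 34.24 and 35.32 TPM in controls. Mutant replicate 2 lay inside the control range, and the gene missed the threshold (ratio 0.918, limma adjusted p = 0.0587) but passed without mutant replicate 2 (adjusted p = 0.0443), without control replicate 3 (0.0416) and among means from 5 TPM up (0.0436). The gene hoxb10a (ENSDARG00000011579) stood at 12.58, 13.21, 13.81 and 14.14 TPM in mutants, against 15.46, 14.25, 13.17 and 13.67 TPM in controls. The groups overlapped, and the 95% interval of its log2 change ran from -0.19 to 0.06.

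HOXA11 (ENSDARG00000007009), the more abundant gene of that symbol, stood at 8.28, 7.77, 9.18 and 8.25 TPM in mutants, against 9.61, 8.18, 8.12 and 9.57 TPM in controls, a 95% interval of -0.23 to 0.08 on the log2 scale. HOXC12 (ENSDARG00000070352) stood at 15.19, 17.1, 15.96 and 16.82 TPM in mutants, against 16.8, 16.18, 18.57 and 18.54 TPM in controls, an interval of -0.23 to 0.03. HOXC13 (ENSDARG00000070353) stood at 13.23, 13.12, 12.16 and 12.49 TPM in mutants, against 13.23, 12.85, 14.51 and 15.39 TPM in controls, an interval of -0.25 to 0.01. In all 3 the groups overlapped, and a decrease of the size seen for HOXB4, -0.21, lies within each interval.

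The group 13 genes, which in fish and mammals shape the outermost part of fins and limbs, included the largest ratios. Here hoxa13a averaged 3.16 ± 0.0821 TPM in mutants and 2.82 ± 0.318 TPM in controls (SD, n = 4 each), a ratio of 1.12 (limma adjusted p = 0.252), and HOXB13 averaged 7.75 ± 0.593 TPM in mutants and 7.14 ± 0.664 TPM in controls, a ratio of 1.09 (adjusted p = 0.351). Neither passed the test. Of the 21 posterior genes not called, ratios ran from 0.91 to 1.12.

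The blocks can also be set side by side at like levels. Among genes with a mean of 12 to 18 TPM, 6 of 10 genes of groups 1 to 8 fell, against 1 of 9 genes of groups 9 to 13. Their median log2 changes were -0.21 and -0.03, and their median standard errors 0.0598 and 0.056. All 6 that fell in groups 1 to 8 were hoxb genes, while HOXD3, HOXC4, HOXD4 and HOXC8 were not called. Of the 9 posterior genes only hoxb10a was a hoxb gene, so block and cluster cannot be told apart here. Over all genes tested 11.9% were called lower, and 18.1% of those with means of at least 5 TPM. This range of levels was chosen after the values were seen.

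Duplicated copies could be compared in 11 pairs. The difference between the changes of the 2 copies was largest for HOXA11, whose changes were -0.45 (ENSDARG00000104162) and -0.07 (ENSDARG00000007009), and for hoxb6, with -0.34 for HOXB6 and -0.09 for hoxb6b. In both pairs the exact permutation test of the difference gave p = 0.0857 (adjusted p = 0.418 over 11 pairs, two-sided). The smallest p that this test allows is 0.0286, at which a single pair would still fail the adjustment over 11 pairs. The test therefore cannot decide whether the copies of a pair differ. The copies hoxb1b and hoxb1a changed by -0.41 and -0.39, and hoxa9b and hoxa9a both by 0.04. Reads that fit both copies of a pair are divided by an estimate, which makes single copies uncertain.

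Genes that work with or around the Hox system were described from lists. Each list's share of calls is to be read beside the 11.9% lower and 8.38% higher among all genes tested, and no list's share was tested against these. Counts at an unadjusted p under 0.05 in limma are to be read beside 3582 lower and 2668 higher of all 18635 genes tested. The PBX and MEIS proteins bind DNA together with Hox proteins. The list of PBX, MEIS and PKNOX genes also held TGIF1 and HMX3, which belong to other families and were not called. Of its 13 genes tested, 3 (23.1%) fell and 0 rose (4 lower and 1 higher at an unadjusted p under 0.05 in limma). The median log2 change of the list was -0.02. The gene pbx2 averaged 30.5 ± 2.37 TPM in mutants and 44.1 ± 1.87 TPM in controls (SD, n = 4 each; limma adjusted p = 0.000171), and meis3 and meis1a had ratios of 0.872 and 0.914. The abundant pbx4, a main partner in the zebrafish hindbrain, averaged 63.4 ± 3.24 TPM in mutants and 63.2 ± 1.08 TPM in controls.

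Genes that mark or divide the hindbrain and its border with the midbrain summed to 386.6 to 406.8 TPM in mutants and 424.6 to 445.8 TPM in controls. Of 36 tested, 9 (25.0%) fell and 0 rose (13 lower and 1 higher at an unadjusted p under 0.05 in limma), with a median log2 change of -0.08. GBX2, which positions the border of midbrain and hindbrain, averaged 8.34 ± 0.807 TPM in mutants and 12.02 ± 0.946 TPM in controls (limma adjusted p = 0.00161). IRX1 (ENSDARG00000056594), irx7 and EN2 (ENSDARG00000038868) had ratios of 0.739, 0.743 and 0.794. The other genes with the symbols IRX1 (ENSDARG00000101831) and EN2 (ENSDARG00000026599) had ratios of 0.942 and 0.962 and were among the 27 not called. The glial and neural crest markers GFAP and SOX10 fell too, with ratios of 0.926 and 0.872 (adjusted p = 0.0104 and 0.0332), whereas the neuronal markers ELAVL3 and ELAVL4 rose, with ratios of 1.1 and 1.19 (adjusted p = 0.0248 and 0.0127). The part that shares of cell types play in the Hox result was not tested.

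Genes of the spinal cord and motor neurons summed to 352.1 to 365.5 TPM in mutants and 338.6 to 348.2 TPM in controls. Of 30 tested, 4 rose (13.3%, against 8.38% of all genes) and 0 fell (11 higher and 2 lower at an unadjusted p under 0.05 in limma), with a median log2 change of 0.07. The motor neuron gene mnx2b averaged 2.1 ± 0.367 TPM in mutants and 1.47 ± 0.195 TPM in controls, with overlap. Ratios were 1.23, 1.21 and 1.17 for foxp1b, lhx5 and the acetylcholine transporter gene SLC18A3 (ENSDARG00000006356). The other 26 genes were not called, among them MNX1, ISL1, LHX4 and LHX3, with ratios of 1.03, 0.958, 0.991 and 1.56.

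Retinoic acid switches on anterior Hox genes. Of 30 genes of its synthesis, breakdown and receptors tested, 6 (20%) were called higher and 4 (13.3%) lower, the second share being close to the 11.9% of all genes, and the median log2 change was 0.08. The retinaldehyde reductase genes DHRS3 (ENSDARG00000044982 and ENSDARG00000044803), which respond to retinoic acid and limit its synthesis, had ratios of 0.661 and 0.777 (limma adjusted p = 0.000794 and 0.000392). Of the receptors raraa fell to a ratio of 0.884 and rxrgb to 0.853, while rarab rose to 1.16. The other increases were led by rdh1 (ratio 1.37), ALDH8A1 (1.23) and CRABP1 (ENSDARG00000035904, 1.13). The synthesis gene ALDH1A2 averaged 18.5 ± 0.649 TPM in mutants and 19.9 ± 0.243 TPM in controls. The breakdown gene CYP26A1 averaged 23.3 ± 0.339 TPM in mutants and 25.0 ± 0.907 TPM in controls. Neither passed (limma adjusted p = 0.078 and 0.0814). For both, every mutant library lay below every control, as for 13.8% of all genes tested.

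Of 31 gene IDs matched to a list of tail bud and cdx-upstream genes, 20 were tested, and msgn1, tbx16 and tbx6 were not among them. At an unadjusted p under 0.05 in limma, 5 of the 20 were lower and 1 was higher, and the median log2 change was -0.07. At an adjusted p under 0.05, 0 rose and 3 fell (15.0%, near the 11.9% of all genes). They were sp5l, a Wnt target (ratio 0.583), SALL4 (0.789) and FGF3 (0.807). Of 43 Polycomb and Trithorax genes, whose products keep Hox genes silent or active, 1 (2.33%) was called higher and 2 (4.65%) lower, both below the shares of all genes, and the median log2 change was -0.04. EZH2, the histone methyltransferase of the repressive complex, averaged 27.4 ± 1.36 TPM in mutants and 21.1 ± 0.245 TPM in controls (limma adjusted p = 0.000201), and cbx2 had a ratio of 0.865. Of 34 genes of a fin list tested, 6 (17.6%) were called higher and 4 (11.8%) lower, the second share being near the 11.9% of all genes. The median log2 change of the fin list was 0.03. The actinodin genes and2, and3 and and1 of the fin fold led the increases, with ratios of 1.65, 1.6 and 1.48, followed by EN1 (ENSDARG00000014321, 1.48). SALL4, msx1b and msx3 fell to ratios of 0.789, 0.847 and 0.912. The list also held DNAJB9, a chaperone gene rather than a fin gene. Its entry ENSDARG00000016886 fell to a ratio of 0.689, while ENSDARG00000052072 had a ratio of 1.1 and was not called. Of the genes called, SALL4 stands in both the tail bud and the fin list, and FGF3 in both the tail bud and the hindbrain list. Genes not called are shared between lists too, among them MNX1, FGF8, CYP26B1, ALDH1A2 and PAX2, so the lists are not independent.

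The 28 markers of larval tissues summed to 40990 to 41640 TPM in mutants and 36000 to 36700 TPM in controls. A few abundant genes weighed most in these sums, hbae3 among them, at means of 8107 TPM in mutants and 4492 TPM in controls. Of the 28 markers, 13 (46.4%) were called higher and 4 (14.3%) lower. The largest increases were those of the lens gene CRYAA (ratio 2.23), the embryonic globin gene hbae3 (1.80), the fast muscle gene myhz2 (1.79) and the lens gene CRYBA2 (ENSDARG00000030349, 1.42). Besides GFAP and SOX10, the gut gene FABP2 and the hatching gland gene he1.1 fell, with ratios of 0.734 and 0.882. TPM are shares of a library, and after rescaling without mitochondrial and the 50 most abundant genes, 16 of the 49 Hox and cdx genes were called lower in limma. Over all genes that scaling gave 1806 lower calls (9.69%) and 1866 higher ones, so the excess of lower calls over all genes turned round under it.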

How the data were processed

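RNA of whole larvae was sequenced in 8 libraries, and the authors deposited 1 table of TPM per Ensembl gene, printed to 2 decimals; STAR 2.7.3a, RSEM 1.3.1 and the build GRCz11 are named in the submitters' processing notes. TPM values are shares within a library, so depth is unknown. Symbols came from a table of gene identifiers, which named 29201 of 32520 (89.8%). Zebrafish copy names in brackets were assigned where RefSeq (GRCz12tu) left a single candidate; other shared symbols are told apart by identifier. No sequences were used here, and 1 of the 49 genes and 1 gene of another list enter the counts only and are not reported singly here.

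The test was limma 3.58.1 in R 4.3.3 (eBayes with trend, two-sided) on log2(TPM + 1), with Benjamini-Hochberg adjustment. It covered the 18635 genes whose mean reached 0.5 TPM. The same test was run on simulated independent normal values, which leave out shared reads and correlation between genes. Ratios are of mean TPM, mutant over control. Groups came from the sample titles. The genes and lists were chosen with earlier results of these data known, and no set test was run. Values per library are given for genes called, the highest of each paralogue group and the 3 closest to the threshold; from other lists at most 4 called genes per direction are named by size of change, and any other gene named was picked with its values in view. Alternatives were other pseudocounts, filters and scalings, no trend, a replicate block and leaving out each library. Same-numbered libraries of the groups correlated between -0.10 and -0.02 in their deviations. This gave no sign that the numbers pair them, but it cannot exclude a pairing. Python 3.11.15, pandas 2.3.3, scipy 1.17.1 and matplotlib 3.10.9 were used.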

Additional observations from a re-analysis of the deposited data

Results flagged for a closer look

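Among 100 sets of 4 libraries examined, 1 for each gene and group with RPGRIP1L included, 2 held a library far from the other 3 (Dixon's ratio of gap to range above the 95% critical value), where chance flags about 1 in 20. For hoxa9b, mutant replicate 3 stood at 17.86 TPM, against 15.88, 16.02 and 16.21 TPM in the other mutants (ratio 0.833). For hoxa10b, mutant replicate 4 stood at 11.53 TPM, against 12.8, 12.95 and 12.95 TPM in the other mutants (ratio 0.894). Neither gene was called.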

How the results depend on the processing

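The count of 17 genes lower was 14 to 18 under the 9 alternatives other than leaving out a library, and 12 to 16 when 1 library was left out; 0 rose under any of them. The median log2 change stayed between -0.13 and -0.09 under the same alternatives. In all, 11 of the 17 calls held under every alternative that tested the gene, and cdx4, HOXB2, hoxc3a, hoxb8b, HOXC10 and HOXA11 (ENSDARG00000104162) were lost under at least 1; the causes were not tested. The replicate block treated same-numbered libraries as pairs, though the numbers gave no sign of a pairing. It gave 14 genes lower, 13 of them among the 17, and 2865 genes changed in all against 3778 without it. It ended the calls of HOXB2, hoxb8b, HOXC10 and HOXA11 (adjusted p = 0.0697, 0.0578, 0.0608 and 0.0518) and called HOXD3 (0.0297). No mutant replicate correlated best with its own number. Without a trend hoxc3a was lost (adjusted p = 0.0694), as with no filter (0.0553).

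No called gene turned direction, but 13 genes not called did under at least 1 alternative. Leaving out 1 library gave log2 changes of -0.043 to 0.071 for HOXA5, -0.12 to 0.018 for HOXC6 (ENSDARG00000101954), -0.069 to 0.0042 for HOXD9, -0.049 to 0.0025 for hoxa10b, -0.0041 to 0.062 for HOXD10, -0.081 to 0.035 for HOXC11, -0.072 to 0.022 for hoxc11b, -0.068 to 0.037 for HOXD11, -0.12 to 0.027 for HOXC12 (ENSDARG00000103133), -0.073 to 0.035 for HOXD12, -0.12 to 0.042 for hoxa13b, -0.050 to 0.014 for HOXC13 (ENSDARG00000113877) and -0.0022 to 0.11 for hoxd13a. Median-of-ratios rescaling put HOXD11 at 0.0022, and rescaling without mitochondrial and the 50 most abundant genes put it at 0.0095 and HOXC13 (ENSDARG00000113877) at 0.0030.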
